A study of Sus scrofa with 36 samples.

Results

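The thyroid transcriptome of crossbred F1 pigs was set against the mean of the 2 breeds that stand beside it in the series, Large White (LW) and Creole (CR), to ask which transcripts of the cross departed from the level midway between the breeds. The F1 samples were all those that the labels call F1, 12 of the 36 thyroid arrays, and they were compared with 12 LW and 12 CR arrays. Each breed had 6 castrated pigs labelled 24 °C and 6 labelled 30 °C. The growth protocol describes the warm condition as 5 days at 32 °C, with slaughter of the 24 °C pigs before that exposure and of the 30 °C pigs at its end, which leaves temperature and time of slaughter confounded, and they cannot be told apart. The study raised F1 pigs as a Large White by Creole cross in the French West Indies, but the labels give neither the direction of the cross nor sires, dams and litters, so breed and family cannot be told apart. The study arranged the pigs of each breed in a few blocks of several littermates each, so the 12 pigs of a breed come from only a few litters. Littermates were treated as independent pigs, and the p-values measure the spread between these animals only.

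When the alleles of both parents each contribute their share to a transcript, a first-generation cross is expected midway between its parents; a cross that lies nearer to one parent shows dominance, and a cross outside the range of both is called transgressive. The thyroid holds follicular cells, which make thyroglobulin and thyroid hormone, and a smaller population of C cells, which release calcitonin. In the pig the calcitonin gene family includes the calcitonin receptor-stimulating peptides (CRSP), which are related in sequence to the calcitonin gene-related peptide.

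RNA of each pig was hybridised to a single-colour Agilent array of 60-base probes, and values are log2 intensities after quantile normalization, so a difference of 1 is a doubling of signal. Between 72.8 and 80.3% of the spots of an array were well above background, and arrays correlated with each other at 0.983 to 0.995. Follicular markers were at high level in every breed, with a summed linear intensity of their 6 measured genes between 377218 and 587139 in F1, 360399 and 582043 in LW, and 327684 and 618759 in CR. On an axis from -1 at the CR mean to 1 at the LW mean, with each pig left out of the mean of its own breed, F1 pigs lay between -0.33 and 0.39 (median 0.04), LW pigs between 0.52 and 0.98, and CR pigs between -0.97 and -0.35. The pig nearest to another breed was replicate 3 of CR at 30 °C, at -0.35. Probes of the 13 protein genes of the mitochondrial genome, 128 in number, were left out of every comparison.

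The cross differed from the mean of the breeds in 104 of 45969 probes (0.226%) at an adjusted p under 0.05 in limma, 46 of them higher (0.1%) and 58 lower (0.126%) in F1. The median size of these differences was 0.40 on the log2 scale, 12 of the 104 reached 1 and 61 were under 0.5. F1 lay above both breeds in 45 of the called probes, below both in 55 and between them in 4. Against each breed alone, 56 of the 104 were called against both LW and CR, 14 against LW only and 34 against CR only. Over all probes, F1 differed from LW in 848 (1.84%), from CR in 1473 (3.2%), and LW from CR in 5935 (12.9%); these comparisons share pigs. In none of the 45969 probes was the range of the F1 pigs free of overlap with the ranges of both breeds. At their own temperature, all 12 F1 pigs departed from the mean of the breeds in the called direction in 48 of the called probes, 11 of 12 did in 39, and the fewest was 9. The same pigs chose the probes. Counts of F1 pigs on the called side, here and for called genes below, therefore describe the calls without supporting them. With replicate 6 of F1 at 24 °C left out, the count fell from 104 to 64.

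**Figure D1:**
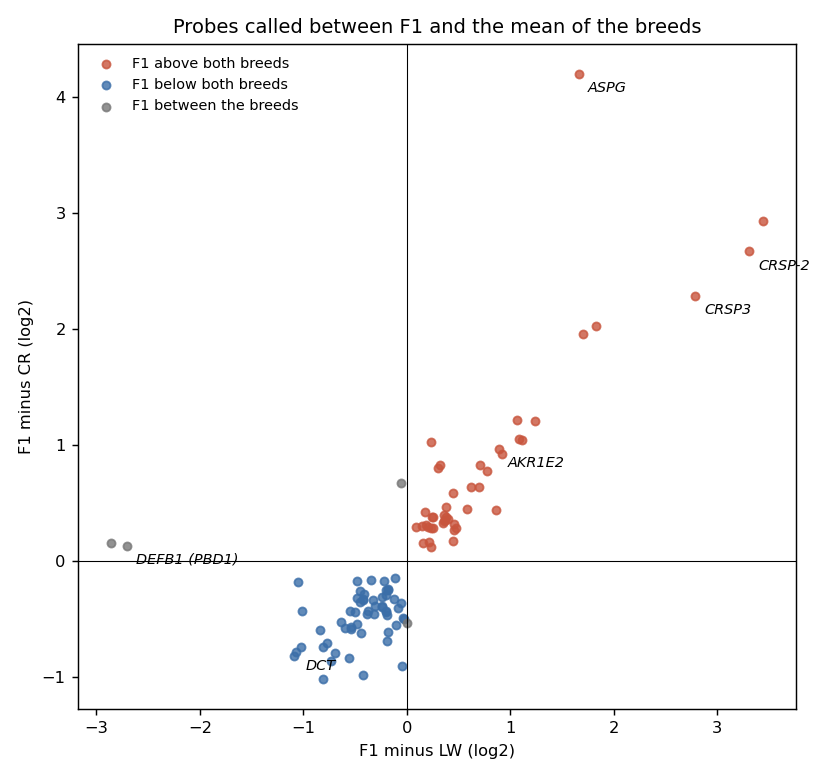
Each point is 1 of the 104 called probes of F1 set against the mean of the breeds, with the difference F1 minus LW (log2) on the x axis and F1 minus CR (log2) on the y axis. Most points lie in the quadrants above both breeds (45) or below both (55), and DEFB1 lies near 0 on the CR axis while it is far below LW.

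The largest differences were in the calcitonin gene family. CRSP-2 and CRSP3, which encode calcitonin receptor-stimulating peptides, lie 98.4 kb apart on chromosome 2 (44243581 to 44263254 and 44135970 to 44145211 in RefSeq's Sscrofa11.1; positions of the probes themselves are not given in the sources used here). CRSP-2 ranged from 8.65 to 12.7 (median 11.2) in the 12 F1 pigs, from 6.98 to 9.45 (median 7.68) in LW and from 5.16 to 11.2 (median 8.80) in CR. Of the F1 pigs, 11 exceeded the highest LW pig and 6 exceeded the highest CR pig, and every LW and CR pig was below the F1 median. The difference from the mean of the breeds was 2.99 (SE 0.50, adjusted p 0.00232), 7.93-fold, and it was 3.31 against LW (adjusted p 0.00114) and 2.67 against CR (adjusted p 0.00762). CRSP3 averaged 9.68 ± 1.13 over the F1 pigs, 6.90 ± 0.59 over LW and 7.40 ± 1.66 over CR (SD, 12 pigs each), a difference of 2.54 (SE 0.41, adjusted p 0.00136), 5.81-fold. For both genes 12 of 12 F1 pigs were above the mean of the breeds, and CR pigs were more spread than LW pigs.

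The probes of this family are alike, and a 30-base stretch of the CRSP-2, CRSP3 and CRSP1 probes is shown to let the likeness be seen, with the run that all 3 share in capitals.
CRSP-2: cacacataTATGCATGCTTCTtgcttgaaa
CRSP3: cacacataTATGCATGCTTCTtgcttgaaa
CRSP1: catccatgTATGCATGCTTCTggaaactga
The stretches begin at base 11, 7 and 3 of the respective probe, and the shared run is 13 bases long. Between the CRSP-2 and the CRSP3 probe the longest identical run was 35 bases, so signal from either transcript at the probe of the other was not separated. A further CRSP-2 probe, whose longest run in common with the CRSP3 probe was 5 bases, was called too, at 3.19 (SE 0.55, adjusted p 0.00272), whereas the last one differed by 0.49 (SE 0.12, adjusted p 0.0682). A second CRSP3 probe, well above background on 9, 6 and 5 of the 12 F1, LW and CR arrays, differed by 0.31 (SE 0.11, adjusted p 0.260).

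The neighbouring members of the family lay in the same direction without passing the test. CALCB (CRSP1), further along the chromosome, averaged 14.3 ± 1.39 over the F1 pigs, 12.2 ± 0.85 over LW and 11.9 ± 2.52 over CR (SD, 12 pigs each), a difference of 2.24 (SE 0.59, adjusted p 0.0910), with 11 of 12 F1 pigs above the mean of the breeds. CALCB (CGRP), the entry that carries the name of the calcitonin gene-related peptide, differed by 0.75 (SE 0.26, adjusted p 0.248). Their receptors and receptor-modifying proteins were not called: CALCR, the calcitonin receptor, differed by 0.31 (SE 0.21, adjusted p 0.673), CALCRL by 0.02 and RAMP1, RAMP2 and RAMP3 by -0.13, -0.07 and 0.14. Of the 12 probes measured for the list of the calcitonin family and its receptors, 1 for each entry, 2 were called, both higher in F1, and the list had a median of 0.23, whereas over the 12360 named genes the median was 0.00 and 25 genes, 0.202%, were called.

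**Figure D2:**
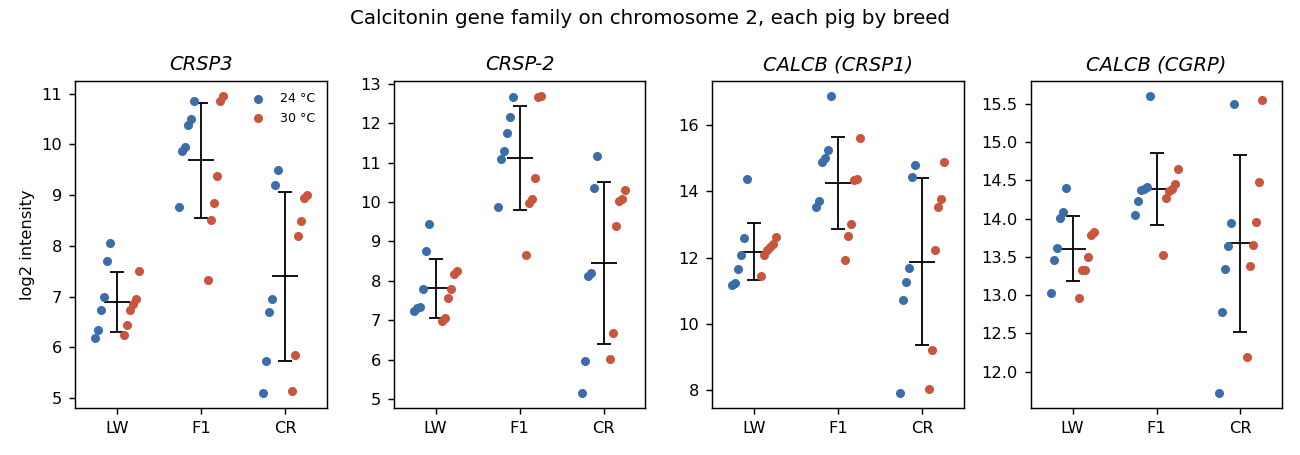
Log2 intensity (y axes) of 4 genes of the calcitonin family in each of the 36 pigs by breed, coloured by labelled temperature; the black line and bar are the mean and SD of 12 pigs. F1 pigs have the highest mean in each panel, CRSP3 and CRSP-2 separate most, and CR pigs spread over the widest range.

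Markers of the C cell were read beside this result. None of the 14 measured genes of the C cell and neuroendocrine list was called, the list's median was 0.49, and 9 of the 14 had an unadjusted p under 0.05, beside 9.07% over all genes. Of the 14, 10 lay above the mean of the breeds and 4 below it, from -0.35 to 0.79. The secretory granule genes CHGB and SCG2 differed by 0.79 (SE 0.26, adjusted p 0.208) and 0.73 (SE 0.26, adjusted p 0.277), PCSK1, a prohormone convertase, by 0.77 (SE 0.21, adjusted p 0.112), and RET and GFRA4, a tyrosine kinase receptor and a co-receptor of its ligands, by 0.48 and 0.67. CHGA, the most intense of them, was level, at -0.02 (SE 0.05). Over the 6 of 8 C cell markers measured, the summed linear intensity ranged from 52749 to 69616 in F1, 52647 to 68043 in LW and 48813 to 81914 in CR, and no marker was near background. In such a sum the most intense gene weighs most. In tissue RNA more cells of a type and more RNA per cell cannot be told apart, and the part of C cells in the CRSP result was not tested. CALCA was not among the names of the measured probes.

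Called genes higher in F1 also included the enzymes ASPG, AKR1E2 and CDO1 and the transporter SLC23A1. ASPG encodes an asparaginase, which splits asparagine into aspartate and ammonia, and RefSeq places it on no chromosome. ASPG fell into separate levels: 10 F1 pigs were between 11.9 and 12.6 and the other 2 at 7.05 and 7.14, 7 LW pigs were between 10.6 and 12.4 and the other 5 between 6.55 and 6.98, and all 12 CR pigs were between 6.87 and 7.38. The difference from the mean of the breeds was 2.93 (SE 0.64, adjusted p 0.0308), and it was 4.19 against CR (adjusted p 0.00111) and 1.67 against LW (adjusted p 0.298). Leaving out single pigs ended the call in 8 of 36 cases, with a largest adjusted p of 0.0654. The mean of a breed therefore depended on how many of its pigs were at each level.

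AKR1E2, an aldo-keto reductase that reduces anhydrofructose, also had F1 pigs at separate levels, with 8 between 9.03 and 9.37 and 4 between 7.81 and 8.35. LW pigs were between 7.53 and 8.94 (median 7.89) and CR pigs between 7.44 and 8.16 (median 7.92). The difference was 0.93 (SE 0.13, adjusted p 0.00026), 1.91-fold, with 8 F1 pigs above every pig of both breeds. CDO1, the cysteine dioxygenase that opens the way to taurine, was between 8.86 and 10.2 (median 9.57) in F1, 7.87 and 9.20 (median 8.62) in LW and 8.08 and 9.97 (median 9.08) in CR. Its difference was 0.65 (SE 0.15, adjusted p 0.0418), called against LW (0.87, adjusted p 0.00343) and not against CR (0.44, adjusted p 0.154). SLC23A1, a sodium-coupled vitamin C transporter, differed by 0.38 (SE 0.09, adjusted p 0.0404), with 11 of 12 F1 pigs above the mean. The calls of CDO1 and SLC23A1 were each lost when any of 17 single pigs was left out.

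Several genes of immune recognition departed in opposite directions. MIC-2, a chain-related gene of the major histocompatibility complex (MHC) whose products are ligands of an activating receptor of natural killer cells, was at 9.33 to 9.70 in 8 F1 pigs and at 8.13 to 8.26 in the other 4, while LW pigs lay between 7.72 and 8.33 and CR pigs between 7.79 and 8.49. Its difference was 0.92 (SE 0.14, adjusted p 0.000962), both of its probes were called, and a further called probe without a gene name had the same 60 bases as a MIC-2 probe. On slide 5, which held 1 F1, 2 LW and 1 CR array, the MIC-2 difference was -0.06. SLA-6, a non-classical class I gene of the pig MHC on chromosome 7, was between 9.29 and 10.8 (median 10.2) in F1, 10.6 and 11.3 (median 10.97) in LW, and 10.4 and 11.1 (median 10.7) in CR. SLA-6 was thus lower, at -0.72 (SE 0.11, adjusted p 0.000962), with 8 F1 pigs below every pig of both breeds and 12 of 12 below the mean. Of its 2 probes 1 was called, and both had this sign. MHC genes vary in sequence between pigs, and whether alleles differ at these 60-base probes was not tested.

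Of the 20 measured genes of the class I and antigen processing list, SLA-6 was the one called, and the list's median was -0.04. SLA-1, SLA-3 and B2M, the classical chains and their light chain, differed by -0.11, 0.02 and -0.05, and PSMB8, a subunit of the immunoproteasome, by 0.60 (SE 0.21, adjusted p 0.255). None of the 10 class II genes was called (median 0.00), and none of the 28 interferon-stimulated genes, of which 23 lay above the mean of the breeds (median 0.11).

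TLR7, the endosomal receptor of single-stranded RNA, was higher by 0.55 (SE 0.12, adjusted p 0.0247). It ranged from 6.12 to 7.08 (median 6.84) in F1, 5.90 to 7.20 (median 6.59) in LW and 5.65 to 6.42 (median 6.03) in CR, so F1 overlapped LW fully and exceeded the highest CR pig in 10 of 12 pigs. The other TLR7 probe differed by 0.53 (SE 0.13, adjusted p 0.0641) and was not called. OLR1, a scavenger receptor of oxidised lipoprotein, was lower by -0.33 (SE 0.07, adjusted p 0.0362), and 9 F1 pigs were below the lowest LW pig. Of its 2 probes 1 was called, and both had this sign. Its call was lost when any of 14 single pigs was left out, with a largest adjusted p of 0.0822. DEFB1 (PBD1), a beta-defensin, was the gene with the largest negative difference, and its F1 pigs had the CR level. It lay between 7.33 and 8.32 (median 7.61) in F1, 6.98 and 8.21 (median 7.70) in CR, and 8.97 and 12.1 (median 10.4) in LW, so that all 12 F1 pigs were below the lowest LW pig. The difference from the mean was -1.28 (SE 0.22, adjusted p 0.00239), from LW -2.70 (adjusted p 3.07e-08) and from CR 0.13 (SE 0.25, adjusted p 0.847). In the antimicrobial and neutrophil list DEFB1 (PBD1) was the gene called of 15 measured, and the list's median was -0.18. Of the 15, 5 lay above the mean of the breeds, up to 0.41, and 10 below it. An unadjusted p under 0.05 was found for 7 genes, among them NPG4 (-0.89, SE 0.34, adjusted p 0.323), a protegrin, and S100A8 (-0.49, SE 0.24, adjusted p 0.483).

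DCT, the dopachrome tautomerase of melanin synthesis on chromosome 11, was lower in F1 than in both breeds. It ranged from 6.42 to 7.63 (median 7.02) in F1, 7.29 to 8.59 (median 8.12) in LW and 7.15 to 8.72 (median 7.69) in CR, with 10 F1 pigs below the lowest LW pig and 8 below the lowest CR pig. The difference was -0.93 (SE 0.12, adjusted p 4.58e-05), the smallest adjusted p among the named genes, and it was -0.86 at 24 °C (adjusted p 0.0259) and -0.99 at 30 °C (adjusted p 0.0126). Of its 5 probes 3 were called and 4 had this sign. The other 11 measured genes of the melanocyte and pigment list were not called, with a list median of 0.00: KIT, the receptor of melanocyte precursors, differed by -0.32 (SE 0.14, adjusted p 0.420), MITF by -0.07 and SOX10 by 0.02. PMEL, a structural protein of the melanosome, was near background, well above it on 7 of 12 F1 arrays. DCT and PMEL were the 2 of 5 melanocyte markers measured, and their summed linear intensity was 129 to 244 in F1, 218 to 432 in LW and 187 to 463 in CR; the part of melanocytes in the DCT result was not tested.

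**Figure D3:**
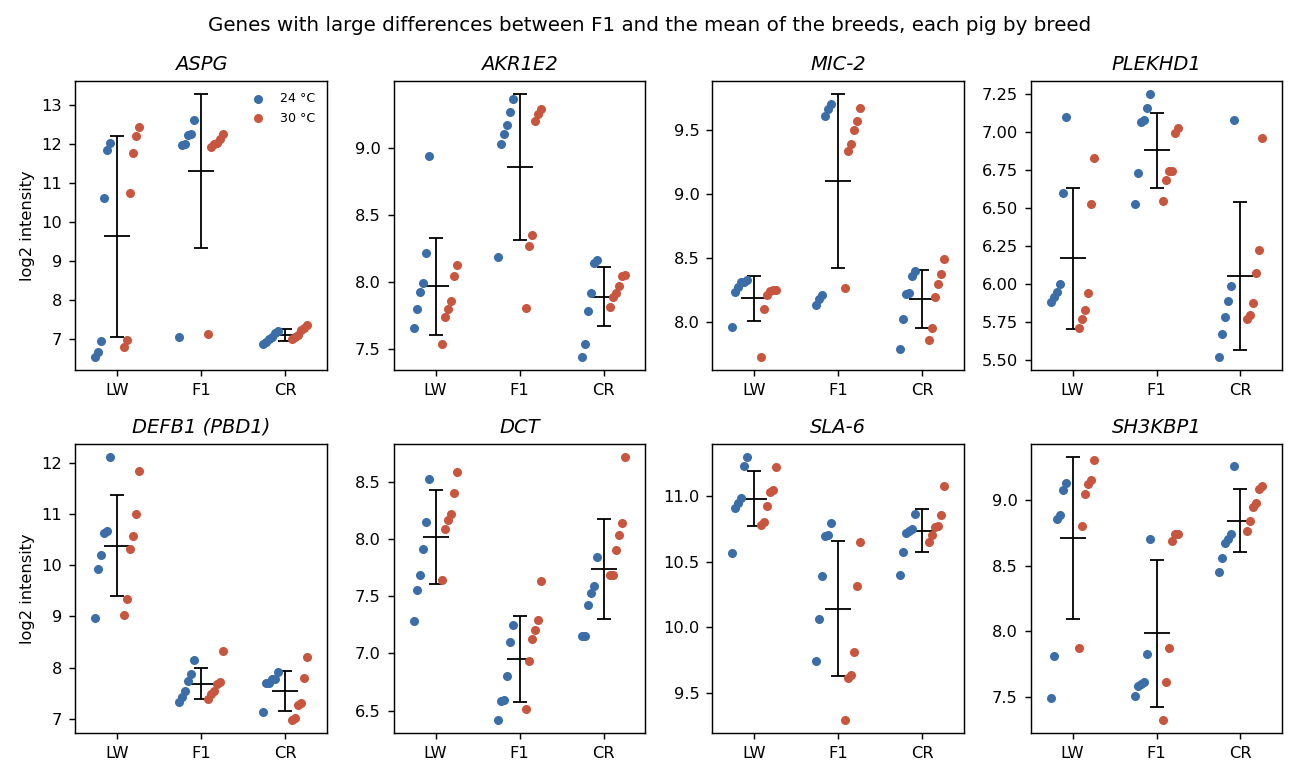
Log2 intensity (y axes) of 8 named genes in each of the 36 pigs by breed, coloured by labelled temperature; the black line and bar are the mean and SD of 12 pigs. ASPG, AKR1E2, MIC-2 and SH3KBP1 show separate levels among F1 pigs, DEFB1 shows F1 pigs at the CR level, and DCT and SLA-6 show F1 pigs below both breeds.

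Among the other genes higher in F1, PLEKHD1 ranged from 6.53 to 7.25 (median 6.87) in F1, 5.71 to 7.10 (median 5.94) in LW and 5.52 to 7.08 (median 5.88) in CR. Its difference was 0.77 (SE 0.14, adjusted p 0.00658), with 12 of 12 F1 pigs above the mean. ZNF642, of the zinc finger family, differed by only 0.38 (SE 0.05, adjusted p 0.00026), but 11 of 12 F1 pigs were above every LW and CR pig. CACNA2D1, an auxiliary subunit of voltage-gated calcium channels, was higher by 0.31 (SE 0.05, adjusted p 0.000962), and 9 F1 pigs were above every pig of both breeds. ZNF642 and CACNA2D1 had 2 probes each, both higher in F1, of which 1 was called. FKBP14, a prolyl isomerase of the endoplasmic reticulum, was higher by 0.30 (SE 0.06, adjusted p 0.0288), called against CR (0.43, adjusted p 0.00112) and not against LW (0.18, adjusted p 0.275). Further genes called higher included RNF219 (0.25), ZNF268 (0.23), MOSPD1 and RINT1 (0.19 each) and CALY (0.18).

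Among the genes lower in F1, NUDT16, a nucleotide hydrolase, differed by -0.36 (SE 0.07, adjusted p 0.0116), and 9 F1 pigs were below the lowest LW pig. Of its 3 probes 1 was called, and all 3 had this sign. LXN, an inhibitor of carboxypeptidases, differed by -0.25 (SE 0.06, adjusted p 0.0433), and its call was lost when any of 23 single pigs was left out. FAM208B differed by -0.19 (SE 0.04, adjusted p 0.0317); it lies 412 kb from AKR1E2 on chromosome 10, and these neighbours moved in opposite directions. ATP5G3, which encodes the membrane-ring subunit of the mitochondrial ATP synthase, was lower in F1 than in CR, at -0.49 (adjusted p 4.38e-06), and at the level of LW, at -0.04 (SE 0.06, adjusted p 0.875). It was between 15.4 and 15.9 in F1, 15.4 and 15.8 in LW and 15.7 and 16.4 in CR, a difference from the mean of -0.27 (SE 0.05, adjusted p 0.00899). The 52 measured nuclear genes of the oxidative phosphorylation list, to which ATP5G3 was not matched, had a median of -0.03 and none called.

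The X chromosome carried 6 of the 30 called genes: MID1, PRPS2, TLR7, SH3KBP1, PCYT1B and MOSPD1. These were 6 of 365 measured X genes (1.64%), against 20 of 9528 autosomal genes (0.210%), and 6 of 763 X probes (0.786%), against 25 of 20606 autosomal probes (0.121%). A difference between these shares was not tested. Of the 6, 5 start in the first 21 Mb of the chromosome, where 59 of the 365 measured X genes start. That boundary lies just beyond the start of the called gene PCYT1B, at 20605769. It follows the calls, so the count within it describes them only, and an uneven spread was not tested. A castrated male pig carries a single X, from its dam, and the labels do not give the breed of the dams. For genes carried on the X alone, the expectation of a level midway between the breeds, which rests on alleles of both parents, does not apply. Their departures from the mean of the breeds cannot be read as dominance. PRPS2 (chromosome X, 9505034 to 9531044) and TLR7 (9573178 to 9576987) are 42.1 kb apart. The called PRPS2 probe departed in the opposite direction to TLR7, whereas the other PRPS2 probe, not called, had the sign of TLR7 (0.17, SE 0.04).

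SH3KBP1, an adaptor of receptor endocytosis (chromosome X, 15887131 to 16229212), fell into separate levels, with 8 F1 pigs between 7.32 and 7.87 and 4 between 8.69 and 8.75. Of the LW pigs 3 were between 7.49 and 7.87 and 9 between 8.80 and 9.30, and all CR pigs were between 8.45 and 9.26. The difference was -0.80 (SE 0.16, adjusted p 0.0198), and the low level was thus present in F1 and LW pigs and in no CR pig. MID1, a ubiquitin ligase bound to microtubules (chromosome X, 7235386 to 7906049), differed by -0.51 (SE 0.09, adjusted p 0.00239), with 7 F1 pigs below every LW and CR pig. PRPS2, which makes the phosphoribosyl precursor of nucleotides, was at the LW level in F1: 8.48 to 8.92 (median 8.67) in F1, 8.52 to 9.03 (median 8.66) in LW and 9.04 to 9.41 (median 9.21) in CR, so that all 12 F1 pigs were below the lowest CR pig. The other PRPS2 probe had the opposite sign, at 0.17 (SE 0.04, adjusted p 0.0854), and in it too F1 lay at the LW side. PCYT1B, an enzyme of phosphatidylcholine synthesis, differed by -0.33 (SE 0.07, adjusted p 0.0317), but was well above background on 3 of 12 F1, 7 LW and 11 CR arrays, so its low values are near the floor of the array. MOSPD1 lay 0.19 above the mean (SE 0.04, adjusted p 0.0317).

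The place of F1 between the breeds was then read over the probes that differed between LW and CR, which were chosen by the LW minus CR difference; the F1 pigs entered that choice through the variance pooled over all arrays and the array normalization, not through their means. The position of a probe is its F1 difference from the mean of the breeds scaled by the LW minus CR difference so that -1 is the CR mean, 0 the mean of the breeds and 1 the LW mean. Over the 2970 autosomal probes the median position was 0.09 (quartiles -0.32 and 0.48), and 89.4% lay between the breeds. Over the 103 X probes it was 0.50 (quartiles 0.16 and 0.78): 88 lay nearer to LW and 15 nearer to CR, 17 lay at or beyond the LW mean and 0 at or beyond the CR mean. Along the X chromosome the median position was 0.58 over the 23 such probes before 20 Mb, of which 21 were nearer to LW, 0.54 over the 40 from 20 to 60 Mb, of which 33 were, and 0.42 over the 40 after it, of which 34 were. MAOA, the monoamine oxidase A gene, and ACSL4, an acyl-CoA synthetase, were among those near LW, with positions of 1.02 and 0.76 in the probe of each with the smallest LW against CR adjusted p, whereas MSN, moesin, lay at -0.31. Their other probes among the 103 lay at 0.66 to 0.83 for MAOA, 0.76 and 0.82 for ACSL4 and 0.05 for MSN. These 3 genes were picked after their values were seen. The values of a chromosome share pigs and haplotypes, so probes are not independent and no test over probes was made.

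The position was also read within single pigs. Fitted over the autosomal probes, each weighted by its breed difference, the 12 F1 pigs lay between -0.54 and 0.35 (median -0.13), with 6 on either side of 0. This median was on the CR side, whereas the median over probes, 0.09, was on the LW side. Of the F1 pigs at 24 °C only replicate 4 (-0.38) lay below 0, and of those at 30 °C only replicate 2 (0.03) lay above it. A difference in position between the temperatures was not tested. Over the X probes the 12 F1 pigs lay between -0.53 and 1.20 (median 0.73), and 10 of 12 were on the LW side. In 12 of 12 pigs the X position was above the pig's own autosomal position. Replicates 5 and 6 of F1 at 30 °C stood apart from the other 10, at -0.31 and -0.53 over the X probes, and these were also among the F1 pigs nearest to CR over the autosomal probes, at -0.34 and -0.54. Where the LW minus CR difference reached 1 on the log2 scale, the 153 autosomal probes had a median position of -0.34, toward CR, with 107 of 153 nearer to CR, the opposite side from the median over all 2970; no X probe reached that size.

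**Figure D4:**
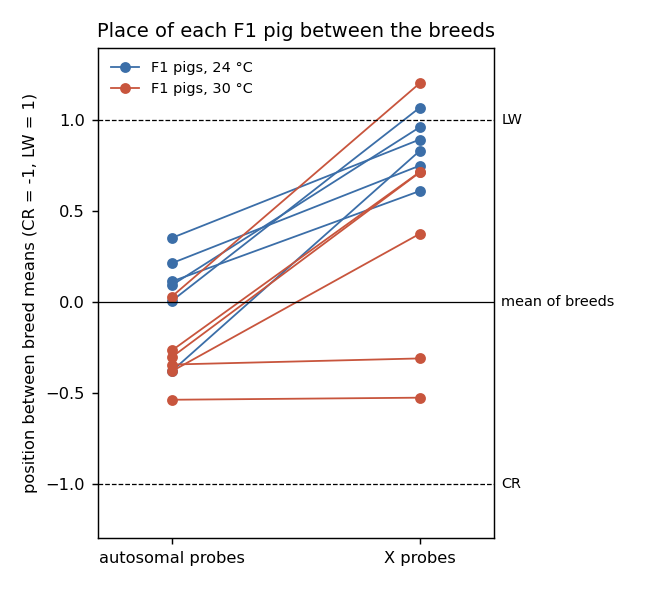
Position of each of the 12 F1 pigs between the CR mean (-1) and the LW mean (1) on the y axis, over autosomal probes and X probes that differ between LW and CR; a line joins the values of a pig and colour gives the labelled temperature. Every line rises from autosomal to X probes, and 10 of the 12 X positions are above 0.

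The departure of F1 was compared between the temperatures. At 24 °C F1 differed from the mean of the breeds in 67 probes (0.146%) and at 30 °C in 17 (0.037%). The difference of the departure between the temperatures was itself called in 0 of 45969 probes by limma (3208 at an unadjusted p under 0.05, smallest adjusted p 0.445), so the unequal counts are not a tested difference. All 104 probes called over both temperatures had the same sign at each. That agreement follows largely from the choice of probes on both temperatures pooled, and it is no separate support. CRSP-2 departed by 3.40 at 24 °C and 2.58 at 30 °C, CRSP3 by 2.96 and 2.12, AKR1E2 by 1.06 and 0.80, and DEFB1 (PBD1) by -1.37 and -1.20. SLA-6 had -0.43 at 24 °C and -1.001 at 30 °C (unadjusted p of the difference 0.0112, adjusted p 0.682), and PCYT1B had -0.15 and -0.50 (0.0130, adjusted 0.682).

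None of the follicular cell genes named here was called. TG, which encodes thyroglobulin, was between 18.4 and 19.1 in F1, 18.3 and 19.1 in LW and 18.1 and 19.1 in CR, a difference of 0.13 (SE 0.09, adjusted p 0.687). Its probe was among the brightest of every array, where quantile normalization gave several pigs an identical value, so its spread between pigs is limited by the processing. SLC5A5, the sodium-iodide symporter, differed by -0.14 (SE 0.22, adjusted p 0.901), PAX8, a transcription factor of the lineage, by -0.02 (SE 0.08, adjusted p 0.967), and TSHR, the thyrotropin receptor, by -0.26 (SE 0.08, unadjusted p 0.00396, adjusted p 0.203). Of the 15 measured genes of hormone synthesis 0 were called by limma, 1 had an unadjusted p under 0.05, and the median was 0.01; DIO2, the deiodinase that makes triiodothyronine, had the largest difference, 0.43 (SE 0.26, adjusted p 0.611).

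Over the 20 process lists, 5 genes were called: CRSP-2, CRSP3, DCT, DEFB1 (PBD1) and SLA-6. The 31 heat shock chaperones had a median of 0.03, the 22 genes of the unfolded protein response -0.01, the 67 cytosolic ribosomal proteins 0.00, the 29 cell cycle genes -0.03, the 32 antioxidant enzymes -0.01 and the 23 imprinted genes 0.05, each with none called. The 22 xenobiotic enzymes had a median of -0.05 and a widest departure of -1.20, and 7 of them had an unadjusted p under 0.05. Among cell type markers, the 8 adipocyte genes had a median of 0.40, and 5 of them had an unadjusted p under 0.05: ADIPOQ, the adipokine adiponectin, differed by 0.65 (SE 0.20, adjusted p 0.172), CIDEC by 0.63 and PLIN1 by 0.55, both of lipid droplets. For these 3 genes the F1 means were near the CR means, 12.2 against 12.1 for ADIPOQ, 10.5 against 10.3 for CIDEC and 9.83 against 9.89 for PLIN1, and above the LW means of 10.9, 9.51 and 8.68. The summed linear intensity of the adipocyte markers was 20614 to 50463 in F1, 17826 to 34965 in LW and 16475 to 47327 in CR. PTH, parathyroid hormone, differed by 0.98 (SE 0.32, adjusted p 0.213) and was well above background on 8 of 12 F1 arrays. The 6 measured C cell markers had a median of 0.57, the 2 measured parathyroid markers 0.52 and the 2 measured melanocyte markers -0.48, and the medians of the other marker lists not given above lay between -0.18 for T cells and 0.05 for myeloid cells.

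**Figure D5:**
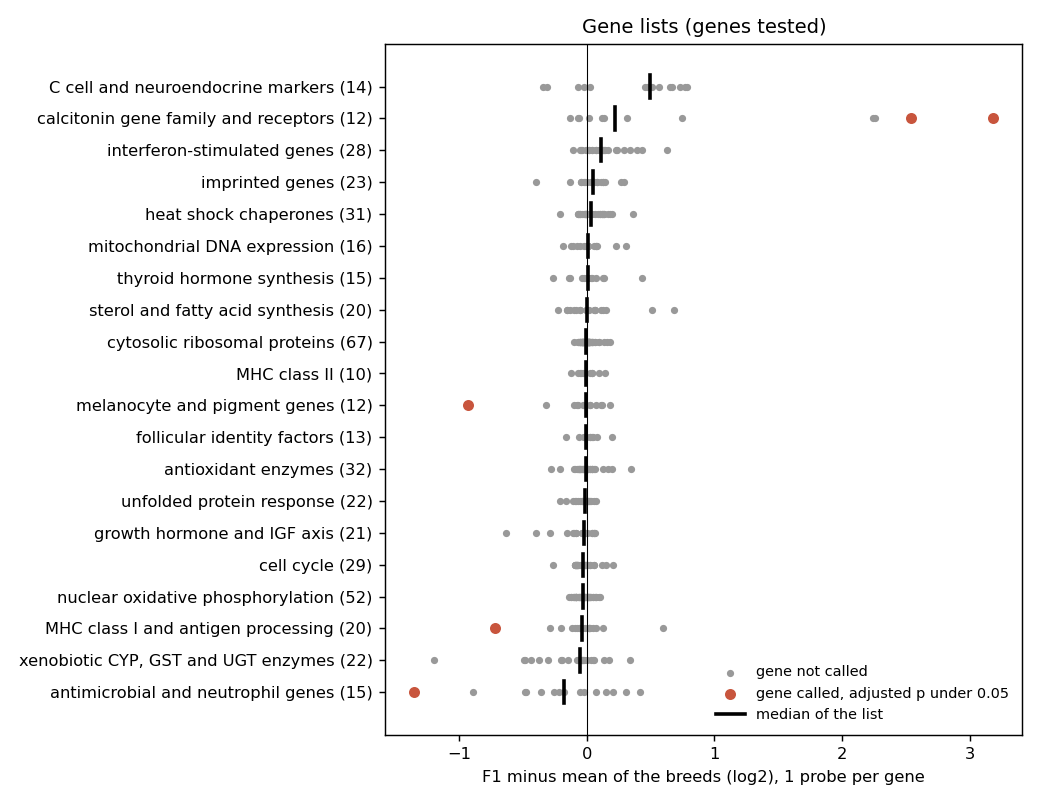
F1 minus the mean of the breeds (log2, x axis) for each measured gene of 20 lists (rows, with the number of genes measured in parentheses); red points passed the adjusted p of 0.05 and black bars are list medians. The C cell and calcitonin lists have the highest medians, 0.49 and 0.23, and 5 genes are called in all.

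Of the 104 called probes 68 had no gene name in the tables used here, with differences from -0.91 to 1.93, and 4 of these shared a run of at least 25 bases with a probe of a named gene: MIC-2, SH3KBP1, TLR7 and ATP5G3. The probe of contig TC541933 differed by 1.83 (adjusted p 0.00232), above both LW (1.71) and CR (1.96). The 104 probes therefore stand for fewer transcripts than probes.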

How the data were processed

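Single-colour Agilent arrays of 36 pig thyroids were scanned and extracted by the authors with Agilent Feature Extraction 10.10.1.1, per the labels. The deposited table holds log2 values that the authors made from median pixel intensity by quantile normalization, for 46097 probes, 63 values missing in 61 probes. It was used as the main table; the scanner files' intensity columns, deposited by the authors, served for the alternatives and for background calls, and values remade from them differed from the table by a median of 0.0056. Groups came from the sample labels. No depth exists for arrays, so the number of arrays limits the precision.

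Probes were named through the accession, gene number or symbol of the array files and RefSeq's Sscrofa11.1 gene table: 24119 of the 45969 tested probes received a name, of 12360 genes, and 21556 a chromosome. Models were fitted with limma 3.58.1 (R 4.3.3; linear models with moderated variances) over all 36 arrays with breed means and a temperature term, and contrast F1 minus the mean of LW and CR; the temperatures were compared with 6 group means. P-values were adjusted by the Benjamini-Hochberg method over all probes tested. The authors' random terms of pen, slaughter, sire and dam are not in the labels and were left out. The fit was tested on simulated data. Named genes were the 12 with the largest called difference in each direction with the same sign at both temperatures, each by its called probe with the largest absolute t, the called genes of any list, and thyroid genes fixed by name, given where measured whatever their values. A list gene was represented by its probe with the highest mean. The members and lists were chosen with earlier results of these data known. Alternatives were other signals and normalizations, a background filter, slide and array position as blocks, other model terms, mitochondrial probes kept and single pigs left out; 2 more were chosen after seeing the data, namely 2 pigs that stood apart in earlier results left out (replicate 3 of CR at 30 °C and replicate 4 of F1 at 24 °C), and probes sharing a run of 25 bases with a mitochondrial probe left out. A few genes are not reported here.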

Additional observations from a re-analysis of the deposited data

Results flagged for a closer look

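In each of 168 groups of 6 pigs (28 named genes, 6 groups) the lowest and highest pig was set against its nearest neighbour, with the gap divided by the group's range, and 18 groups exceeded the critical value of Dixon's test, which chance passes in about 1 of 20 groups. The widest ratios were those of ASPG, at 0.936 for replicate 5 of F1 at 30 °C (7.14, next pig 11.9) and 0.885 for replicate 4 of F1 at 24 °C (7.05, next pig 11.98). In MIC-2 the ratio was 0.760 for replicate 6 of F1 at 30 °C, 0.734 for replicate 3 of LW at 24 °C and 0.711 for replicate 5 of LW at 30 °C, each the lowest pig. In ZNF642 it was 0.750 for replicate 1 of F1 at 30 °C and 0.745 for replicate 3 of LW at 24 °C, both lowest. In SH3KBP1 it was 0.729 for replicate 5 of F1 at 24 °C and 0.637 for replicate 1 of CR at 24 °C, both highest, and 0.648 for replicate 1 of LW at 30 °C, the lowest. AKR1E2 had 0.714 for replicate 2 of F1 at 24 °C, the lowest pig, and MID1 had 0.753 for replicate 1 of F1 at 30 °C, the highest. DEFB1 (PBD1) had 0.709 for replicate 4 of CR at 24 °C, the lowest, and 0.635 for replicate 3 of F1 at 30 °C, the highest. The remaining ratios were 0.699 for PLEKHD1 in replicate 5 of CR at 24 °C, 0.643 for CACNA2D1 in replicate 3 of LW at 30 °C, 0.691 for PCYT1B in replicate 5 of CR at 30 °C and 0.626 for TSHR in replicate 3 of CR at 30 °C. No pig carried more than 2 of these.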

How the results depend on the processing

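The count of 104 probes ranged from 64, without replicate 6 of F1 at 24 °C, to 144, without replicate 6 of F1 at 30 °C, when single pigs were left out. It became 207 with mitochondrial probes kept, of which 56 were mitochondrial and 151 were not. It was 103 with remade median signals, 87 with the processed signal, 113 after normexp, 102 under the background filter, 144 and 147 with slide as a fixed and a random block, 88 with array position as a block, 109 without temperature, 122 with 6 group means, 118 without the 2 pigs that stood apart and 104 with the robust trend. Of the 24 named called genes 11 were called in all these fits and with each pig left out: CRSP-2, CRSP3, AKR1E2, MIC-2, PLEKHD1, ZNF642, CACNA2D1, DEFB1 (PBD1), DCT, SLA-6 and MID1. Each gene stands here for its called probe with the largest absolute t, and other probes of some were not called. Without the 2 pigs that stood apart, CDO1 (adjusted p 0.0836), TLR7 (0.0539), PCYT1B (0.0679) and FAM208B (0.0753) lost their calls. With array position as a block ASPG, TLR7, FKBP14, OLR1, PRPS2, LXN and FAM208B did (adjusted p 0.0690 to 0.115), with the processed signal CDO1, SLC23A1, NUDT16, OLR1, ATP5G3, LXN and FAM208B (0.0505 to 0.107), and with 6 group means LXN (0.0510). Within slide 5 the differences of MIC-2 and ATP5G3 had the opposite sign, -0.0604 and 0.105, and the small PAX8 difference ranged from -0.0465 to 0.0150 when single pigs were left out. The autosomal median position of 0.09 turned to -0.34 for breed differences of at least 1. The cause of these changes was not tested. Counts for F1 against LW, F1 against CR and each temperature stayed within 1.5 times under the alternatives run for them. The median X position moved by less than the SD between pigs. That SD was 0.53 on the scale from -1 (CR) to 1 (LW), so this was a lenient check. No paired analysis was possible because the replicate numbers only follow the order of the samples. Of the 104 calls 61 were under 0.5 on the log2 scale, beside a median SD between F1 pigs of a group of 0.17.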
